A study of Mus musculus with 6 samples.

Results

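The genes described here are transcription factors of the primitive streak and the mesoderm that leaves it: Mixl1, T, Evx1, Mesp1, Mesp2, Tbx6, Cdx1 and Snai1. They were chosen by name, and each was read from the array feature that names that gene alone in the platform annotation, taking the feature with the highest mean where a gene had several. Of the 8 genes 7 were measured in this way, among 19938 genes in all. No feature names T alone in the annotation used, and T was not analysed here. The samples were 6 pools of CD1 mouse embryos, an outbred stock, collected at embryonic day 5.0 and cultured for 8 hours, 3 pools in narrow cavities of 90 µm diameter and 3 in wide cavities of 180 µm. Each pool held 30 whole embryos, and its RNA was hybridized to an Affymetrix Mouse Gene array. Pools are named narrow 1 to 3 and wide 1 to 3 after the numbers in the titles. The series set out to compare embryos grown with and without mechanical cues from outside. Levels are log2 signals, on which a step of 1 is a doubling, and differences are narrow minus wide.

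The primitive streak forms at the posterior side of the epiblast, where Nodal, Wnt and BMP signals meet, and cells pass through it to become mesoderm and definitive endoderm. Mixl1 and T mark its onset, Snai1 represses epithelial genes as cells leave it, Mesp1 and Mesp2 are bHLH factors of the nascent mesoderm, Tbx6 directs paraxial mesoderm, and Evx1 and Cdx1 mark posterior positions. In normal development the streak appears after the stage sampled here, so these data describe levels before or around the first steps towards it. The pools were whole embryos, and which tissue the signal of a factor came from was not measured. A difference in Mixl1 or another factor is therefore no readout of the streak or the epiblast alone.

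Mixl1 had the most even difference between the cavities of the 7 factors. Its log2 signal was 11.53, 11.56 and 11.53 in narrow 1 to 3, against 11.68, 11.70 and 11.68 in wide 1 to 3. All narrow pools lay below all wide pools, with a gap of 0.12 between the highest narrow and the lowest wide pool. It averaged 11.54 ± 0.014 in narrow and 11.68 ± 0.012 in wide cavities (SD, n = 3 each), a difference of -0.14 ± 0.04 (SE), or 0.906 times the wide signal with a 95% interval from 0.853 to 0.962. The same-numbered pairs 1, 2 and 3 differed by -0.144, -0.141 and -0.144. Mixl1 encodes a paired-type homeodomain protein needed for normal mesendoderm.

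By limma, a moderated linear model fitted to every gene, Mixl1 had an unadjusted p of 0.00519, which was rank 53 of 19938 genes, and an adjusted p of 1.00 with Benjamini-Hochberg adjustment over all genes, so it did not pass. By that adjusted threshold of 0.05, 0 of 19938 genes passed (0%). Without adjustment 678 genes had a p under 0.05 (3.4%), of which 343 were lower (1.72%) and 335 higher in narrow cavities (1.68%). Mixl1 was the 1 factor of the 7 among them. An exact two-sided permutation test of the 6 pools gave p = 0.1, the smallest that 3 against 3 pools can give.

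The spread between Mixl1 pools within a cavity was small. Within groups its residual SD was 0.013, where the median over all genes was 0.067 and 0.787% of genes had a lower one. The SE above comes from a spread that limma draws towards that of other genes, and is larger than the pools of Mixl1 alone would give. Differences as low or lower than that of Mixl1 were found for 323 genes (1.62%), and among the 1994 genes above the 90th percentile of mean signal for 4. Mixl1 itself lay at percentile 92.4 of mean signal. Since each feature has its own response, this says that the feature was bright and not how Mixl1 compares in transcripts with another gene.

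**Figure D1:**
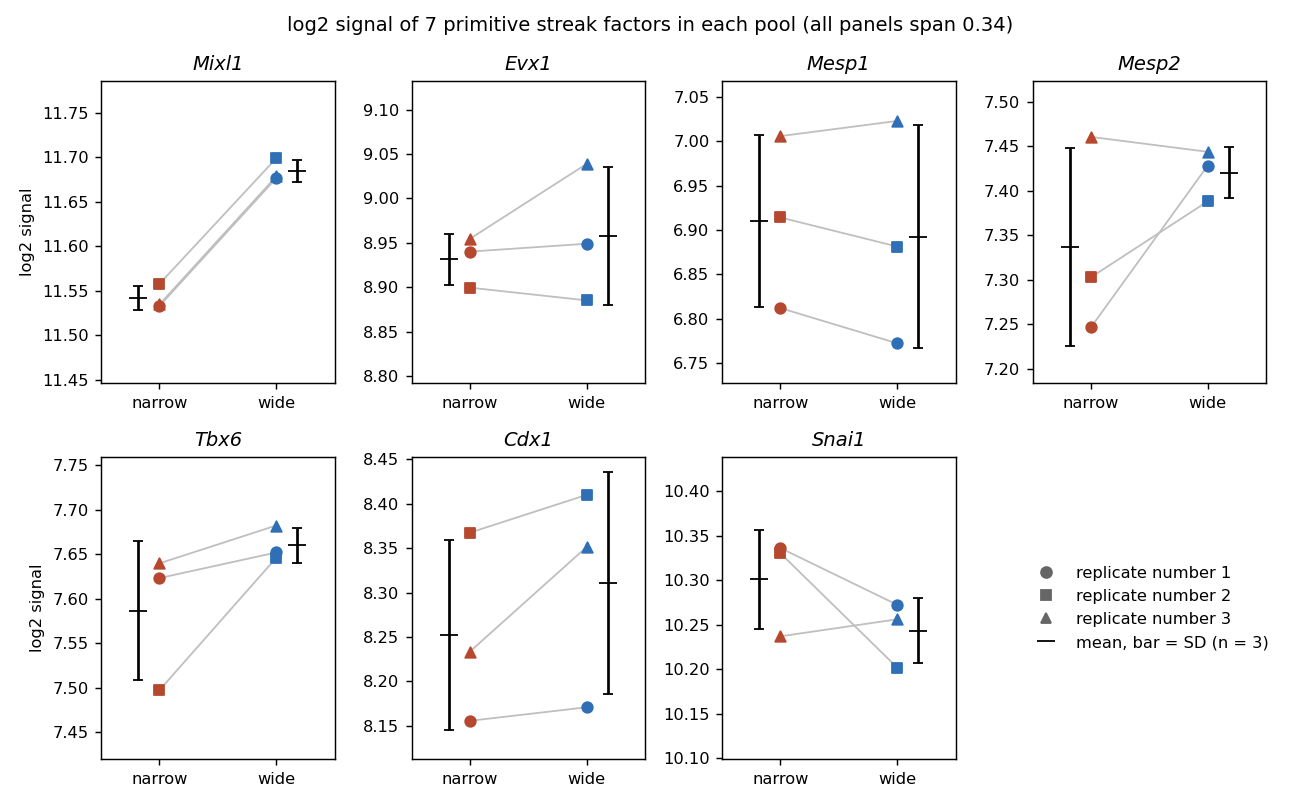
Log2 signal (vertical axis) of each of the 7 measured factors in narrow and wide pools, with the same-numbered pools joined by grey lines and black bars for the mean and SD of 3 pools. Each panel spans 0.34, and the 3 narrow Mixl1 pools sit between 11.53 and 11.56, below the wide pools at 11.68 to 11.70.

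Each pool mixed epiblast, extraembryonic ectoderm and visceral endoderm, so fewer cells expressing a gene and less RNA per cell cannot be told apart. Markers of these tissues were bright, as the label of whole embryo implies. On the scale of percentiles of mean signal over all genes, the 7 epiblast markers lay between 65.3 and 97.9, the 6 of extraembryonic ectoderm between 77.4 and 97.6 and the 8 of visceral endoderm between 85.3 and 99.8. The 7 decidua and stroma markers lay between 6.28 and 60.1, with Dcn, a matrix proteoglycan of stroma, at 8.92 to 8.97 in narrow and 8.69 to 9.04 in wide pools. Of the epiblast markers 6 of 7 had differences below 0 and 0 had an unadjusted p under 0.05 by limma. Narrow lay entirely below wide for 1 of these 7 (background 3.54%) and entirely above for 0 (background 4.17%). The summed linear signal of the 7 ran from 20477 to 21733 in narrow and from 21226 to 22320 in wide pools, so the groups overlapped. Each same-numbered pair of sums was lower in narrow. For extraembryonic ectoderm 4 of 6 differences were below 0, and 2 of 6 were lower in narrow at an unadjusted p under 0.05 (background 1.72%). These were the orphan nuclear receptor gene Esrrb (-0.22 ± 0.04) and the ligand gene Bmp4 (-0.21 ± 0.08). Narrow lay entirely below wide for 2 of the 6 (background 3.54%) and entirely above for 1 (background 4.17%). The summed signal of the 6 ran from 17403 to 18541 in narrow and from 18115 to 18878 in wide pools. Here too each same-numbered pair of sums was lower in narrow. Of the visceral endoderm markers 5 of 8 had differences below 0, and 1 was higher in narrow at an unadjusted p under 0.05 (background 1.68%), the transferrin gene Trf (0.18 ± 0.05), with every narrow pool above every wide pool. The 8 markers summed to 44768 to 45895 in narrow and 45043 to 45662 in wide pools. For these sums pairs 1 and 2 were higher in narrow and pair 3 was lower. The part of tissue proportions in the Mixl1 difference was not tested.

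None of the other 6 factors had an unadjusted p under 0.05. Snai1, the zinc finger repressor of E-cadherin, had the highest positive difference of the 7. Its signal was 10.34, 10.33 and 10.24 in narrow 1 to 3, against 10.27, 10.20 and 10.26 in wide 1 to 3. The groups overlapped through narrow 3, the lowest of the narrow pools. Snai1 differed by 0.06 ± 0.05 (SE), or 1.04 times the wide signal with a 95% interval from 0.967 to 1.12 (limma unadjusted p = 0.243). Pairs 1 and 2 were higher in narrow, at 0.06 and 0.13, and pair 3 was lower at -0.02. The difference was 0.09 without narrow 3 and 0.04 without wide 2.

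Evx1, a homeobox gene of the posterior streak, had 8.94, 8.90 and 8.95 in narrow pools, against 8.95, 8.89 and 9.04 in wide pools. The 3 narrow values lay inside the range of the wide ones. The difference was -0.03 ± 0.05, with a 95% interval for the fold from 0.907 to 1.06, and it was -0.06 without wide 2, -0.01 without narrow 2 and 0.01 without wide 3.

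Mesp1, which marks cells that will form heart and cranial mesoderm, had 6.81, 6.91 and 7.01 in narrow 1 to 3, against 6.77, 6.88 and 7.02 in wide 1 to 3. These values rank the same way by number in both cavities, and the groups overlapped almost entirely. The difference was 0.02 ± 0.07, a fold interval from 0.8996 to 1.14, and it was -0.03 without narrow 3 and -0.04 without wide 1. Mesp2, which sets segment borders in the presomitic mesoderm, had 7.25, 7.30 and 7.46 in narrow pools, against 7.43, 7.39 and 7.44 in wide pools. Narrow 1 and narrow 2 lay below all wide pools, whereas narrow 3 lay above them. Mesp2 differed by -0.08 ± 0.06, with a fold interval from 0.858 to 1.04. Without narrow 3 the difference was -0.15 (limma unadjusted p = 0.0194, adjusted p = 1.00), and without narrow 1 it was -0.04.

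Mesp1 and Mesp2 are neighbours on mouse chromosome 7, with 0 protein-coding genes between them in the RefSeq table, and they are read from opposite strands. Tbx6 protein is known to activate Mesp2. The promoters of these 3 genes are shown because they are the connected set among the factors. Each is the 250 bases before the annotated start in RefSeq, GRCm38.p6, written 5′ to 3′ on the gene's strand.
Mesp1, chr7:79793591-79793840, minus strand: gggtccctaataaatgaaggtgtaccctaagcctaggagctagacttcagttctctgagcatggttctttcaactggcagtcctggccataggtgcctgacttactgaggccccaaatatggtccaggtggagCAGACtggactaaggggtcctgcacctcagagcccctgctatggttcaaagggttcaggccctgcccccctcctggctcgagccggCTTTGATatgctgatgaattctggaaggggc
Mesp2, chr7:79810477-79810726, plus strand: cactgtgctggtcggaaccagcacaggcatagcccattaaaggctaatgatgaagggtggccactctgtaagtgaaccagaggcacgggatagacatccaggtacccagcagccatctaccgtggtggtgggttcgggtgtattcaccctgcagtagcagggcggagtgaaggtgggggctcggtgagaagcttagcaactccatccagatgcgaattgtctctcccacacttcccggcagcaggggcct
Tbx6, chr7:126781233-126781482, plus strand: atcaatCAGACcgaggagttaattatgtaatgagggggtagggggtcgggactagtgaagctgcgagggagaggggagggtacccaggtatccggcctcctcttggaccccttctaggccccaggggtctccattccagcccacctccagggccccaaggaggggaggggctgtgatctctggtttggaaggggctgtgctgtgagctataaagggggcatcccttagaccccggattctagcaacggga
Capitals mark matches, on either strand, to the motifs searched, which were CAGAC and GTCTAGAC (Smad), AATNNACA (FoxH1), CTTTGAT (Lef and Tcf) and TCACACC (T-box). None of these motifs lies within another. The Mesp1 window holds CAGAC at -117 and CTTTGAT at -31 from the start, the Tbx6 window holds CAGAC at -244, and the Mesp2 window holds no match. Among 32851 promoter windows of this length, 42.2% hold CAGAC, 0.167% GTCTAGAC, 10.9% AATNNACA, 3.21% CTTTGAT and 3.33% TCACACC. A match is a match of letters and no site of binding.

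Tbx6, a T-box factor of paraxial mesoderm, had 7.62, 7.50 and 7.64 in narrow 1 to 3, against 7.65, 7.65 and 7.68 in wide 1 to 3. All narrow pools lay below all wide pools, with a gap of 0.0062 between them. Tbx6 differed by -0.07 ± 0.05, with a fold interval from 0.878 to 1.03 (limma unadjusted p = 0.175), and without narrow 2 the difference was -0.03. Cdx1, a caudal-type homeobox gene that sets posterior identity, had 8.16, 8.37 and 8.23 in narrow pools, against 8.17, 8.41 and 8.35 in wide pools. Both pools numbered 1 were the lowest and both numbered 2 the highest of their cavity. Cdx1 differed by -0.06 ± 0.08, with a fold interval from 0.850 to 1.08, and each same-numbered pair was lower in narrow, at -0.02, -0.04 and -0.12. The difference was -0.13 without wide 1, -0.12 without narrow 2, and -0.01 without either narrow 1 or wide 2.

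**Figure D2:**
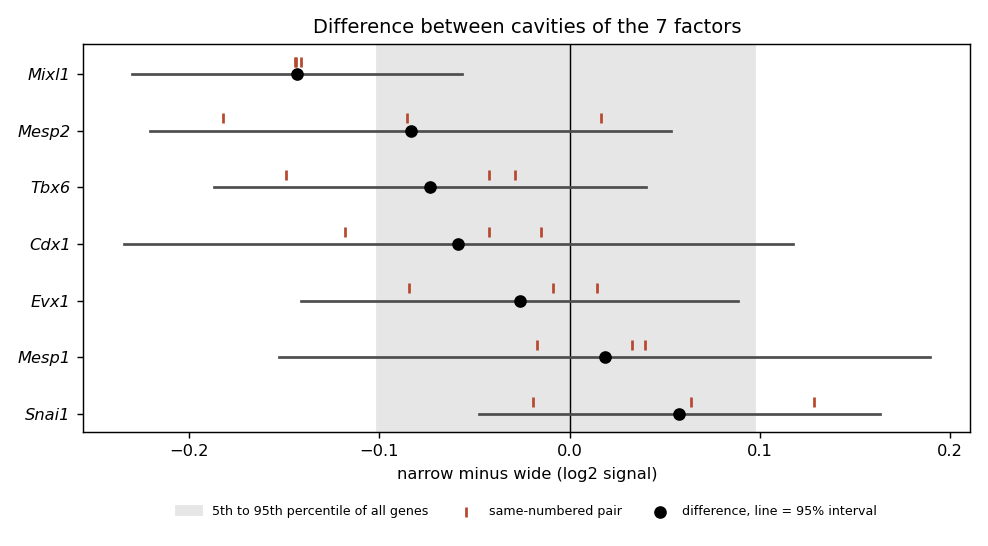
Narrow minus wide difference in log2 signal (horizontal axis) of the 7 factors, as points with the 95% interval of limma, and with a red tick for each same-numbered pair. The grey band holds the 5th to 95th percentiles of all genes, from -0.10 to 0.10, and Mixl1 at -0.14 lies outside it.

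Of the 7 factors 5 had differences below 0, where 49.1% of all genes did, and 2 above 0. The count below 0 was 6 without narrow 3 or without wide 1, and 4 without wide 3. Narrow lay entirely below wide for 2 of the 7, Mixl1 and Tbx6, where it did so for 705 genes (3.54%), and narrow lay entirely above wide for 0 of the 7, against 831 genes (4.17%). The median difference was -0.06 over the 7 factors and 0.0011 over all genes, and the median SE was 0.050 for the factors and 0.053 for all genes.

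The factors differed in what their spread over pools went with. The sum of squares of each gene was divided into a part between cavities, a part between replicate numbers and a rest, as a description with no test. There are more replicate numbers than cavities, so the part between numbers tends to be larger by construction. Each share is therefore to be set beside its own median over all genes, given below, and not beside the other share. For Mixl1 97.8% lay between cavities and 2.20% between numbers. A larger share between cavities was found for 0.0201% of genes. Mesp1 was the reverse, with 1.00% between cavities and 97.1% between numbers, a share exceeded by 1.64% of genes. Cdx1 had 86.5% and Evx1 74.6% between numbers. Tbx6 had 38.5% between cavities and 41.0% between numbers, Mesp2 28.4% and 44.8%, and Snai1 35.9% and 24.8%. Over all genes the medians were 10.04% between cavities and 53.6% between numbers.

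**Figure D3:**
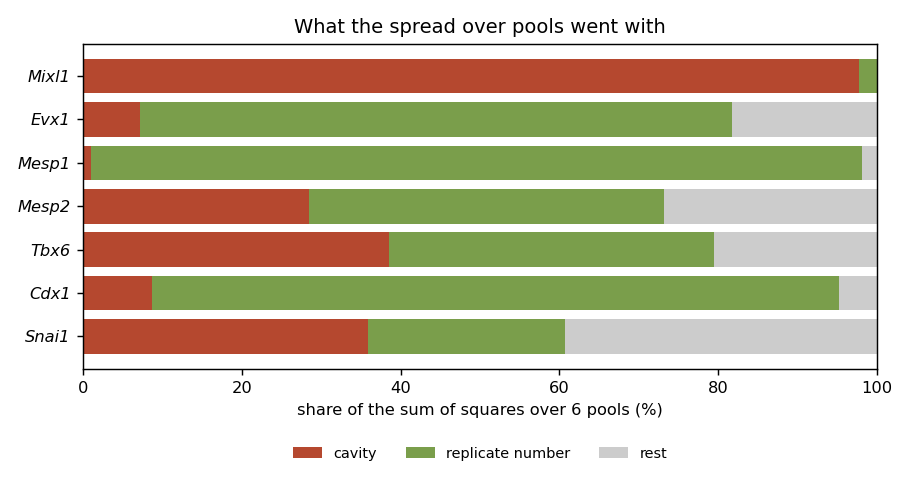
Share in percent of the sum of squares over the 6 pools (horizontal axis) that lay between cavities, between replicate numbers and in the rest, for each factor. Mixl1 has 97.8% between cavities, and Mesp1 has 97.1% between numbers.

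The pools numbered 1 stood apart on the first principal component of all genes (38.5% of the variance), scoring -10.6 in narrow 1 and -8.01 in wide 1, whereas the remaining 4 pools scored 2.76 to 5.87. In the 4 pools numbered 2 and 3 alone, Mixl1 differed by -0.14 ± 0.04 (limma unadjusted p = 0.0209), Tbx6 by -0.10, Cdx1 by -0.08, Evx1 by -0.03, Mesp2 by -0.03, Mesp1 by 0.01 and Snai1 by 0.05. The Mixl1 difference was thus as large without the pools that stood apart.

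**Figure D4:**
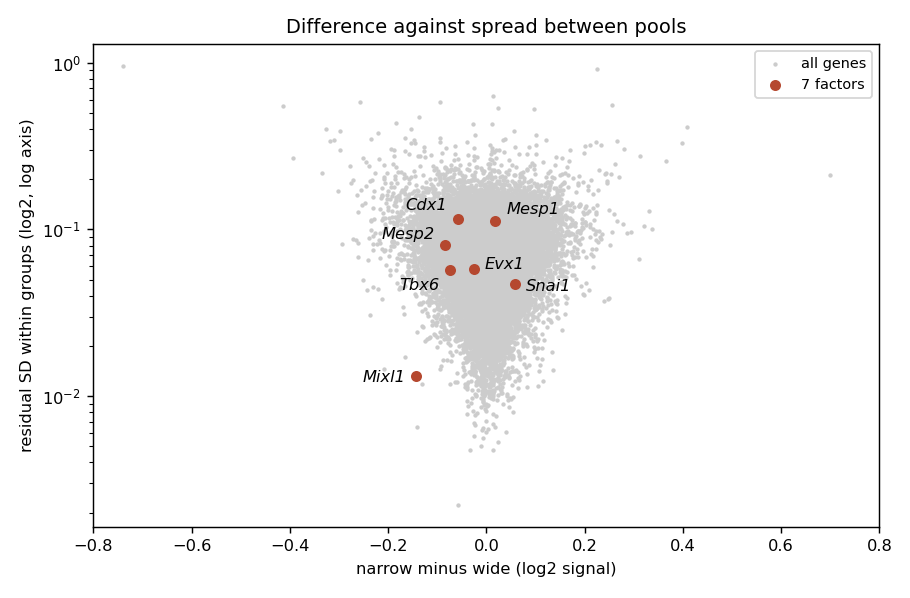
Narrow minus wide difference in log2 signal (horizontal axis) against the residual SD within groups (vertical log axis) for all genes in grey and the 7 factors in red. Mixl1, with a difference of -0.14 and an SD of 0.013, lies at the lower left edge of the cloud, and the other 6 factors lie within it.

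The genes whose 6 values followed those of Mixl1 most closely were Slc6a6, Igsf23, Dgkq, Spesp1 and Inpp1. Likeness was the root mean square distance between profiles centred on their own mean over the 6 pools, among 17152 genes compared, leaving out predicted, receptor and small RNA genes. The distance was 0.0089 for the taurine transporter gene Slc6a6, whose signal was 11.26, 11.27 and 11.27 in narrow pools, against 11.40, 11.41 and 11.40 in wide pools. It was 0.013 for Igsf23, 0.014 for the diacylglycerol kinase gene Dgkq, 0.019 for Spesp1 and 0.020 for the inositol phosphatase gene Inpp1. Narrow lay below wide for each of the 5 (background 3.54%), with differences from -0.12 to -0.14. Both follow from choosing these genes by likeness to Mixl1. Of the other 6 factors Tbx6 came closest, at 0.065, and 10.8% of the genes compared were closer to Mixl1 than Tbx6 was.

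Other genes of the streak and early mesoderm were set beside the factors. Eomes and Cdx2 among them also served as markers of extraembryonic ectoderm above. In pools of whole embryos the list therefore does not read the streak or mesoderm alone. Of 23 such genes, all measured, 0 passed over all genes by limma, 13 had differences above 0 and 10 below, and the median was 0.03. Unadjusted p was under 0.05 for 2, both higher in narrow (background 1.68%). Rspo3, a secreted Wnt agonist, had 8.55, 8.55 and 8.40 in narrow pools, against 8.38, 8.17 and 8.25 in wide pools, a difference of 0.23 ± 0.07. Lhx1, a LIM homeobox gene of the anterior streak and visceral endoderm, differed by 0.15 ± 0.05. For both genes every narrow pool lay above every wide pool, as for 4.17% of all genes. Eomes, the T-box gene that acts upstream of Mesp1, had nearly equal means in the cavities, with 12.40, 12.37 and 12.35 in narrow and 12.36, 12.41 and 12.35 in wide pools, a difference of -0.00074 ± 0.04. The ligand genes Fgf8 and Wnt3 differed by 0.03 ± 0.04 and -0.04 ± 0.07, and the organizer gene Gsc by -0.02 ± 0.06.

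Genes of the signals that act on these factors were set beside them as well. In BMP signalling 10 of 15 genes had differences below 0, and 3 of 15 were lower in narrow at an unadjusted p under 0.05 with 0 higher (background 1.72% lower). Bmp4, the extraembryonic ectoderm ligand needed for mesoderm, had 11.68, 11.70 and 11.48 in narrow pools, against 11.87, 11.91 and 11.70 in wide pools, a difference of -0.21 ± 0.08. Id1, a BMP target, differed by -0.14 ± 0.06. Narrow lay entirely below wide for 2 of 15 genes (background 3.54%). It lay entirely above for 1 (background 4.17%), the ligand gene Bmp2 at 0.14 ± 0.06. The summed linear signal of the 15 genes ran from 29106 to 30177 in narrow pools and from 30267 to 31335 in wide pools, with no overlap. Such a sum weighs bright genes most, Bmp4 among them. The median of the list was -0.01, beside 0.0011 over all genes, and 0 of 15 passed over all genes.

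In Nodal signalling 16 of 17 genes were measured and 0 passed over all genes. Nodal itself differed by -0.04 ± 0.06, whereas the inhibitor genes Cer1 (0.70 ± 0.13) and Lefty1 (0.31 ± 0.05) were the 2 with an unadjusted p under 0.05, both higher in narrow (background 1.68%). The inhibitor gene Lefty2 went the other way, at -0.11 ± 0.10, with a dim signal at percentile 16.3 of all genes. In Wnt signalling 18 of 19 were measured, 11 with differences above 0 and 7 below, and 0 passed over all genes. By limma 3 had an unadjusted p under 0.05, all higher in narrow (background 1.68%). These were the receptor genes Fzd8 (0.33 ± 0.08) and Fzd5 (0.32 ± 0.07) and the secreted Wnt antagonist gene Sfrp1 (0.14 ± 0.05). In FGF signalling, which acts on Snai1 and T during gastrulation, 0 of 11 genes had an unadjusted p under 0.05 by limma and 0 passed after adjustment. Their differences ran from -0.05 to 0.04, with Fgf5 at 0.04 ± 0.05 and Fgfr2 at 0.04 ± 0.04.

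Genes known to act with Snai1 or under it had small differences. Of 17 genes, 0 had an unadjusted p under 0.05 by limma and 0 passed after adjustment, 9 had differences above 0, and the range was -0.09 to 0.07. The ends were the mesenchymal filament gene Vim at -0.09 ± 0.05 and the fibronectin gene Fn1 at 0.07 ± 0.07. The polarity gene Crb3 had 0.06 ± 0.04, and the E-cadherin gene Cdh1 had 0.03 ± 0.04.

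Among 12 genes of segmentation known to act with Tbx6 and Mesp2, 8 had differences below 0, 0 passed over all genes by limma and 2 had an unadjusted p under 0.05, both lower in narrow (background 1.72%). Ripply1, which limits Tbx6 protein in forming segments, had 6.62, 6.64 and 6.51 in narrow pools, against 6.79, 6.89 and 6.73 in wide pools. Ripply1 differed by -0.21 ± 0.06. Its narrow pools lay below 6.73, the 95th percentile of the olfactory and vomeronasal receptor genes described below. Its wide pools lay near or above that value. A signal in this range does not show whether Ripply1 was transcribed. Hes7, an oscillating repressor of the segmentation clock, had 7.87, 8.06 and 7.91 in narrow pools, against 8.06, 8.19 and 8.24 in wide pools, a difference of -0.22 ± 0.07. For both genes every narrow pool lay below every wide pool, as for 3.54% of all genes, and the gap was 0.0035 for Hes7. Msgn1, a bHLH gene of presomitic mesoderm, had -0.11 ± 0.05. Segmentation itself starts later than the stage sampled.

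**Figure D5:**
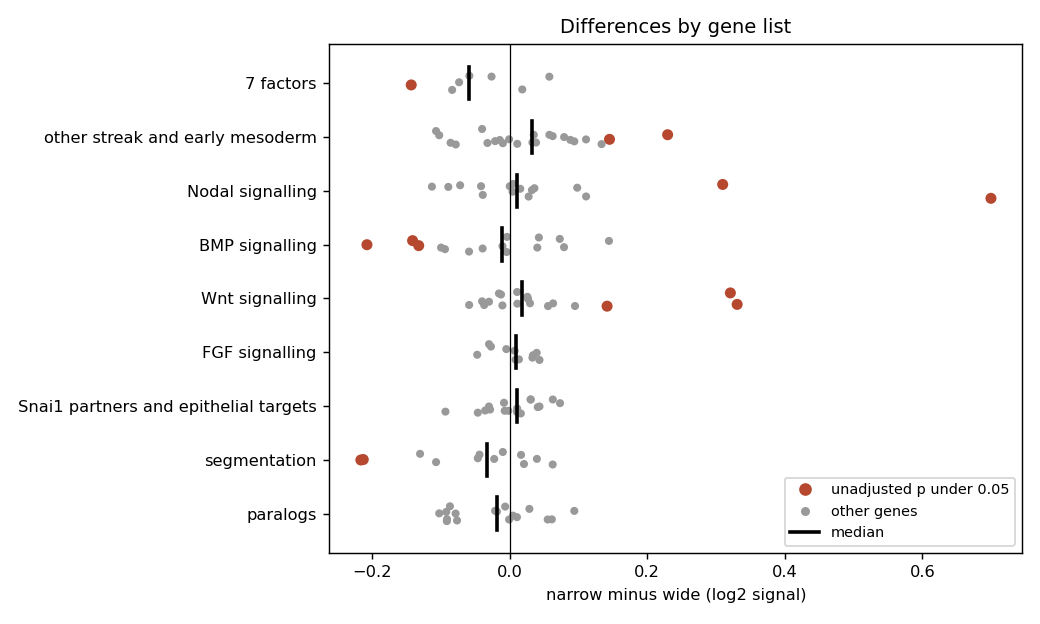
Narrow minus wide difference in log2 signal (horizontal axis) of every measured gene in the 7 factors and 8 further lists, with larger red points for an unadjusted p under 0.05 and a black line for the median of each list. The red points lie below 0 for Mixl1, BMP signalling and segmentation, and above 0 for Nodal and Wnt signalling and the other streak genes.

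How far dim signals limit these values was read from 1190 olfactory and vomeronasal receptor genes, which are not known from this embryo. Their median signal was 5.35 and their 95th percentile 6.73. Mean signal was above that 95th percentile for each of the 7 factors, as it was for 71.9% of all genes, and Mesp1 came closest to it at 6.90. Features respond differently, so a signal near this range does not show whether Mesp1 was transcribed.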

How the data were processed

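Total RNA of 6 embryo pools was labelled with biotin and hybridized, per the labels' protocols. The deposited values were log2 signals, 1 for each of 28853 features and 6 samples, between 4.33 and 14.31, the scale being read from that range. Array medians of 7.62 to 7.67 show that they had been normalized between arrays before deposit. How this was done is stated neither in the labels nor in the file. The number of arrays limits the precision. Through the platform annotation 21789 features named 1 gene, 1621 several and 5443 none, and 19938 genes remained, of which 999 had several features. Groups and replicate numbers came from the sample titles, and the design text calls the samples biological replicates.

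Differences were fitted with limma 3.58.1 in R 4.3.3 (lmFit, eBayes, no covariate, two-sided) over all genes, with Benjamini-Hochberg adjustment at 0.05 and no filter on dim genes. The fit was tested on simulated data drawn with independent noise for each array. That test holds no tie between same-numbered arrays and does not bear on pairing. The 7 factors and the 8 lists were chosen with earlier results of these data known, and are described by counts and medians. Named genes were every measured factor, the 2 genes of smallest p in each list, Eomes, Fgf8, Wnt3, Nodal, Gsc and Lhx1, and the 5 profiles closest to Mixl1. Bmp2, Lefty2, Sfrp1, Cdh1, Fn1, Msgn1 and Dcn were named after their values were seen. Deviations from the group means over all genes correlated at 0.516, 0.176 and 0.272 between same-numbered arrays, all above 0.1, which meets the criterion set for pairing, although narrow 2 with wide 3 reached 0.178. The design text names no pairing, so errors, intervals and p-values in the report come from the unpaired fit. The fit with the number as a block was an alternative. Alternatives were the replicate block, leaving out arrays, other filters, feature choices, normalizations and a trended prior.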

Additional observations from a re-analysis of the deposited data

How the results depend on the processing

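By limma 0 genes passed after adjustment under each of 14 alternatives. Mixl1 stayed below 0 with an unadjusted p under 0.05 in 14 of 14, from -0.15 to -0.14, with p from 0.000615 to 0.0209 and adjusted p from 0.674 to 1.00. With the replicate number as a block its SE was 0.034 (adjusted p = 0.674), and 705 genes higher and 741 lower in narrow had an unadjusted p under 0.05, in place of 335 and 343. No factor but Mixl1 had an unadjusted p under 0.05 with the block. The SE of each factor was smaller with it, falling most for Mesp1 (0.074 to 0.035) and Cdx1 (0.076 to 0.038). By limma with the block the smallest adjusted p over all genes was 0.084. Above the 50th percentile of signal, with fewer genes tested, 254 genes were higher, 130 lower and 811 without overlap, and Mesp1, Mesp2 and Tbx6 gave no value there. In the arrays numbered 2 and 3, 506 genes were higher, 408 lower and 6645 without overlap, in place of 335, 343 and 1536. Groups of 2 against 2, or of 3 against 2, separate more often by construction than 3 against 3. Of these counts this bears on those without overlap alone, the 6645 and those with an array left out. When each array was left out, there were 234 to 642 higher genes (642 without narrow 1), 257 to 513 lower genes and 2892 to 4077 without overlap. Under the replicate block, the trended prior, the signal filter and both feature choices, the differences of the factors equalled those of the main fit. Their signs could not change there. Of 95 values of single factors 92 kept their sign. The 3 others arose when an array was left out, with Evx1 from -0.0625 (without wide 2) to 0.0143 (without wide 3) and Mesp1 from -0.0414 (without wide 1) to 0.0837 (without wide 3). Causes not stated were not tested. The median over the factors ran from -0.08 to -0.03. Array background was not measured, which bears most on the dimmest factors, Mesp1, Mesp2 and Tbx6.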

Other observations

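Paralogs of the factors were measured as well. Of 18 T-box, Evx, Cdx, Snail and related homeobox genes 17 were measured, 11 had differences below 0 and 6 above, the median was -0.02, and 0 had an unadjusted p under 0.05 by limma or passed after adjustment. Tbx3, a T-box gene also listed with naive pluripotency, had -0.09 ± 0.05, and Cdx2, the caudal-type gene of extraembryonic ectoderm, had -0.10 ± 0.06. Their summed linear signal ran from 13739 to 14015 in narrow pools and from 13984 to 14211 in wide pools.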
